A study of Drosophila melanogaster with 20 samples.

Results

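The sites described here are places on chromatin where the ecdysone receptor EcR gave a CUT&RUN peak in the leg and in neither the wing nor the salivary gland. They number 519 of the 3463 sites in the authors' deposited tables. A site was chosen by its overlap with the authors' supernatant peak lists: it overlapped a leg peak and no wing or salivary gland peak. Chromosomes 4, Y and M were left out, and so were midpoints at or beyond 22 Mb on 2L, 23 Mb on 3L and 22 Mb on X, or below 4.5 Mb on 3R. These limits kept 3032 sites of all classes and removed 35 of 554 otherwise eligible leg sites.

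Leg, wing and salivary gland were dissected from female wandering larvae of the fruit fly, 6 hours before puparium formation. All 3 tissues carried the genotype w; EcR-GFSTF / Df(2R)BSC313, a tagged EcR allele with a Flag epitope over a deletion chromosome. In CUT&RUN an antibody guides a nuclease to the bound protein, and short DNA fragments are set free into a supernatant or kept in a pellet. Its antibody label names anti-Flag M2 along with an anti-IgG antibody. The Flag libraries came from pools of at least 90 legs, at least 90 wings or at least 50 salivary glands, with 2 libraries per tissue and fraction. The study's IgG libraries, 6 from wild-type wings and 2 from glands of the tagged genotype, were not analysed here. Peaks were deposited for merged replicates, so no value per library can be given, and the depth is unknown. The labels do not say which leg discs were taken, nor whether replicates were separate dissections. The authors' p-values therefore cover no more than library-to-library spread, and that spread may be technical. Binding is not expression, so marker genes could not be used to check the labelled tissues.

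EcR is the nuclear receptor for the moulting hormone ecdysone and pairs with Ultraspiracle, its partner receptor, on DNA. A pulse of ecdysone at the end of larval life starts metamorphosis: leg and wing discs evert and grow into adult appendages, while the larval salivary glands later die. Early targets are transcription factor genes such as br, Eip74EF and Eip75B, which pass the signal on to tissue-specific genes. All coordinates are 1-based on dm6, and a site is placed inside a gene where its leg summit lies in the span of a coding gene in a RefSeq table without exons, introns or strand.

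The leg peaks at these sites were mostly weak, with a small strong group. Their fold enrichment over background ranged from 2.35 to 21.2, with a median of 5.06 and quartiles of 4.28 and 6.51. Each fold enrichment is the authors' own value for a peak and serves only to describe and rank peaks within a list. In the same leg list the median was 8.08 at the 537 sites shared by leg and wing and 15.1 at the 350 sites shared by all 3 tissues. The −log10 of the q-value, the peak caller's corrected p-value, reached 10 at 83 of the 519 sites. The sites were also narrow, with a median width of 104 bp, against 236 bp for leg and wing and 364 bp for all 3 tissues. The mean normalised read count of the authors' deposited tables had a median of 5.37 at these sites, with quartiles of 4.02 and 7.42. Over all sites of the authors' deposited tables that median was 9.59, with quartiles of 5.58 and 20.1, and 72 of the 519 sites reached it.

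**Figure D1:**
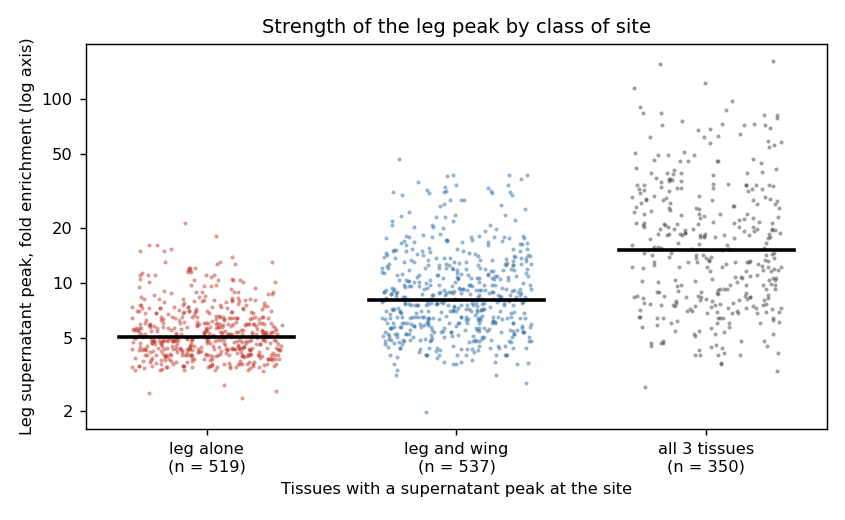
Fold enrichment of the leg supernatant peak (log axis) at sites of the leg alone, of leg and wing, and of all 3 tissues; each point is a site and each bar the median. The medians are 5.06, 8.08 and 15.1, and the ranges overlap.

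At the edge of the rule, the weakest leg peaks inside it had a −log10 q of 1.31 and a fold enrichment of 3.36 each, at ogre, Lamp1 and skd. Just outside were sites with a leg peak that also had a weak wing supernatant peak. The wing −log10 q was 1.34 at Ankle2, 1.54 at CG2747 and 1.83 at Syp, and the wing fold enrichments were 2.86, 3.09 and 3.42 in the same order. The leg fold enrichments of those sites were 4.91, 4.04 and 6.53. On 2L the last site inside the position limit began at 21573442 and the first outside at 23100816, and on 3R the first inside began at 4803473 and the last outside at 4472968. On 3L the corresponding starts were 22151319 inside and 24124766 outside, and on X they were 20501070 inside and 23020464 outside. The 35 sites left out by position had a median leg fold enrichment of 4.59.

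The strongest site of the leg alone lay inside Atg1, which encodes the kinase that starts autophagy, on 3L from 12800341 to 12800586, with a leg supernatant fold enrichment of 21.2. It also had a peak of 4.41 in the leg pellet list and of 4.37 in the wing pellet list, and the nearest supernatant peaks of other tissues were 31979 bp away in the wing and 631 bp away in the gland. The second, at 18.1, lay inside Eip75B, an ecdysone-induced nuclear receptor gene, on 3L from 18006394 to 18006556. Wing and gland supernatant peaks were 599 and 665 bp away from it. Both sites thus had a gland supernatant peak nearby, and the Eip75B site a wing peak as well.

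Next came a site inside osp on 2L from 14606116 to 14606584 and a site inside the homeobox gene OdsH on X from 17807330 to 17807738, each with a fold enrichment of 16.1. A site inside m (miniature), which encodes a zona pellucida domain protein of the cuticle-forming surface of the wing, reached 15.3 on X from 11761769 to 11762195. A site inside brat, a translational repressor gene, reached 14.9 on 2L from 19156796 to 19157107, and lay 324 bp from a wing peak. CG6398 followed at 14.8, and a site 2805 bp outside disco-r, a zinc finger gene of the ventral appendages, at 13.8. The chloride channel gene pHCl-2 held a site of 13.0, and so did the region 3670 bp outside upd3, which encodes a ligand of the JAK/STAT pathway. A further site of 13.0, on X from 8729490 to 8729610, had no coding gene within 5000 bp. The remaining sites of the top 15 were 787 bp outside Pdk1 (12.7), in the overlapping spans of CG15465 and rg (12.6), 2453 bp outside dnc (12.1) and inside N (12.1), the gene of the receptor Notch. Of these 15 sites, 13 had a leg pellet peak and 5 a wing pellet peak.

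**Figure D2:**
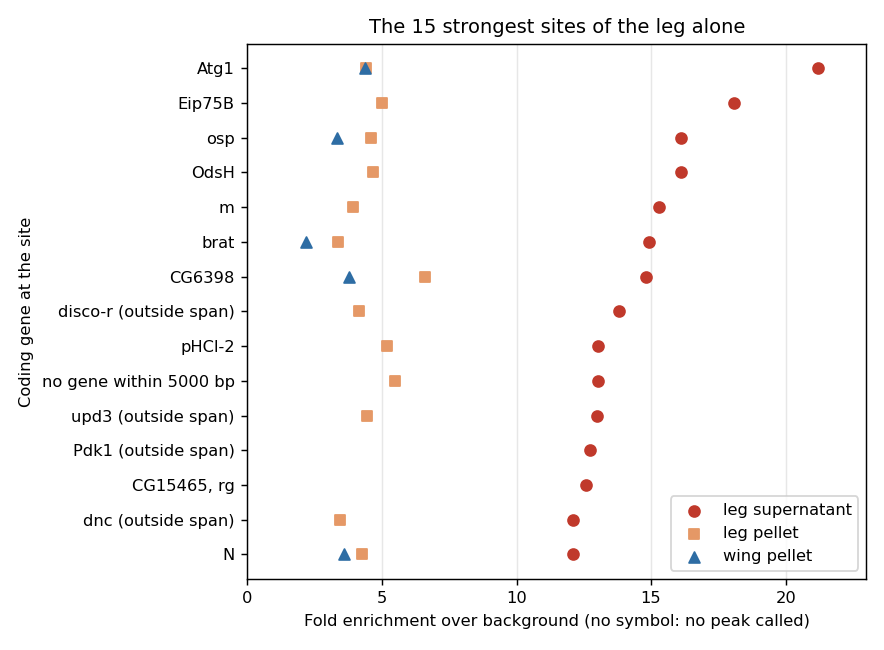
Fold enrichment at the 15 sites of the leg alone with the strongest leg supernatant peak, in the leg supernatant, leg pellet and wing pellet lists; a missing symbol means that no peak was called. Supernatant values run from 12.1 to 21.2, and 13 of the 15 sites have a leg pellet peak.

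The authors' deposited tables hold a log2 fold change for each site between each pair of tissues. These values come from the same experiment as the peaks that chose the sites, so they are given as a description, and nothing is read from how often they passed the threshold. In the authors' deposited table of leg over gland, positive values are higher in the leg, and in that of wing over leg, negative values are higher in the leg. A site was called where the deposited adjusted p was under 0.05.

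Relative to the salivary gland, most sites leaned towards the leg. The median log2 fold change of leg over gland was 1.31 in the authors' deposited table, with a range of −1.45 to 3.64, and 471 of 519 values were above 0. The median deposited standard error was 0.70. Of 518 sites with an adjusted p, 189 were called higher in the leg in the authors' deposited table, against 29.6% of all sites tested. Just 1 site, inside Sox14, was called higher in the gland, against 22.7% of all sites tested. Sox14, an ecdysone-induced transcription factor gene, had a log2 fold change of −1.45 ± 0.40 (SE; adjusted p = 0.00157) in the authors' deposited table of leg over gland. Its leg supernatant fold enrichment was 4.84, and it carried a gland pellet peak of 7.21 and a gland supernatant peak 178 bp away.

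Among sites with a mean count at or above the table's median, the largest leg over gland difference lay 1183 bp outside the ribosomal protein gene RpL17. Its log2 fold change was 3.64 ± 0.71 (SE; adjusted p = 2.49e-05) in the authors' deposited table. It carried pellet peaks of 4.34 in the leg and 4.85 in the wing. A site 4339 bp outside Wnt6, which encodes a secreted Wnt ligand, had 3.25 ± 0.67 (adjusted p = 9.32e-05) in the authors' deposited table. The first site inside Ubx had 2.94 ± 0.54 (adjusted p = 2.09e-06) and the strongest site inside N had 2.87 ± 0.67 (adjusted p = 0.000243) in the same authors' deposited table. Each of these values was more than 4 deposited standard errors above 0. Others of this group in the authors' deposited table were Cpr72Ea, a cuticle protein gene, at 2.81, m at 2.65, Lsp1gamma, a larval serum protein gene, at 2.58 and the Wnt receptor gene fz at 2.53. The list of 10 closed with a site that had no gene within 5000 bp, on 3L from 20656673 to 20656945, at 2.44, and the site outside disco-r at 2.43, both from the authors' deposited table.

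Between wing and leg the differences were smaller and few passed. The median log2 fold change of wing over leg was −0.87 in the authors' deposited table, with a range of −2.94 to 0.47, and 502 of 519 values were below 0. The median deposited standard error was 0.56. Of 471 sites with an adjusted p, 25 were called higher in the leg in the authors' deposited table, against 0.902% of all sites tested. None was called higher in the wing, against 0.571% of all sites tested. A normal 95% interval built from the deposited standard error lay wholly below 0 at 170 of the 519 sites and wholly above 0 at 0. Over all sites of the authors' deposited table, such an interval lay wholly below 0 at 300 of 3463 and wholly above 0 at 129. The 25 sites called higher in the leg made up 83.3% of the 30 sites of the whole table that were called so. The rule asked for a leg peak and no wing peak, which favours such a share, so nothing is read from it. Another 48 sites of the leg alone carry no adjusted p there. Those of them with an unadjusted p had mean counts of at most 3.04. The site near Atg9, at a mean count of 43.6, had neither p-value. Of the 25 sites, 20 were also called higher in the leg than in the gland. That call was made at 36.5% of the sites of the leg alone and 29.6% of all sites tested. The rule used both contrasts and both involve the leg, so this overlap is a description. The 5 not called were the sites inside Ptip, Eip78C and CG30114, the Eip75B site that begins at 17974238 and the OdsH site that begins at 17806748.

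Of the strongest sites, that inside Atg1 had 1.97 ± 0.63 (SE; adjusted p = 0.0048) for leg over gland and −1.40 ± 0.56 (adjusted p = 0.182) for wing over leg in the authors' deposited tables. That inside Eip75B had 1.32 ± 0.58 (adjusted p = 0.0483) and −1.16 ± 0.52 (adjusted p = 0.28) for the same comparisons in the authors' deposited tables. These leg peaks, the highest of the class, were thus called over the gland but not over the wing, while the sites at osp, OdsH, m, brat, CG6398 and disco-r were called over both in the authors' deposited tables.

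The lowest value of wing over leg in the authors' deposited table belonged to the X site with no gene within 5000 bp, at −2.94 ± 0.64 (SE; adjusted p = 0.00146). The smallest adjusted p, 6.41e-08, belonged to m, with −2.50 ± 0.38 in the authors' deposited table. The mean count at m was 15.2 in that authors' deposited table, above the table's median. Among the other called sites, named after their values were seen, one inside tyn had −1.95 ± 0.50 (adjusted p = 0.0132) and a site 3300 bp outside nyo had −2.25 ± 0.67 (adjusted p = 0.0307) in the authors' deposited table. Both genes encode zona pellucida domain proteins, as m does.

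Genes of segment and appendage identity were also among the 25. The sites inside Ubx that begin at 16681667 and 16663517 had −2.74 ± 0.67 (adjusted p = 0.00908) and −2.32 ± 0.39 (adjusted p = 1.54e-06) in the authors' deposited table of wing over leg. The site outside disco-r had −2.51 ± 0.72 (adjusted p = 0.03), and a site 236 bp outside hth had −1.76 ± 0.52 (adjusted p = 0.0406), both in the authors' deposited table. Ubx is the Hox gene of the third thoracic segment, and hth encodes a homeodomain cofactor of the proximal leg. The site inside Ptip, which encodes a subunit of a histone methyltransferase complex, had −2.49 ± 0.61 (adjusted p = 0.00964) in that authors' deposited table. For leg over gland it had 0.03 ± 0.62 (adjusted p = 0.993) in the authors' deposited table, a value smaller than its standard error. The site inside Eip78C, an ecdysone-induced nuclear receptor gene, had a similar profile in the authors' deposited tables, with −2.09 ± 0.61 for wing over leg and −0.29 ± 0.62 for leg over gland. Its leg peak was the weakest of all 519 by fold enrichment, at 2.35, at a mean count of 35.6 in the authors' deposited table.

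The other called sites spread over further genes. The sites already met at OdsH, osp, CG6398, Wnt6 and brat had values of wing over leg between −1.89 at osp and −1.50 at brat in the authors' deposited table, apart from the OdsH site that begins at 17806748, at −2.39 (adjusted p = 0.0137). Sites inside CG30114, CG30089 and CG7991 had −2.28, −2.21 and −2.18 in that order in the authors' deposited table, with leg fold enrichments of 8.56, 5.72 and 12.0. Inside Dyb, a dystrobrevin gene, the value was −1.87, in the overlapping spans of Gint3 and CG42306 −1.78, inside CG5888 −1.73 and inside drn −1.56, again in the authors' deposited table. The last 2 were the Eip75B site that begins at 17974238, with −1.78 (adjusted p = 0.03), and a 2L site 7952 bp from the nearest coding gene, with −1.79 (adjusted p = 0.0254) in the authors' deposited table. The highest mean counts of the class, chosen after their values were seen, were 207 inside the GTPase gene RhoU and 135 inside kirre in the authors' deposited tables. Both sites were called over the gland and neither over the wing in the authors' deposited tables, and their leg fold enrichments were modest, at 4.14 and 3.87.

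Wing and gland, the tissues without a supernatant peak, also differed at some of these sites, in both directions. The median log2 fold change of wing over gland was 0.40 in the authors' deposited table, with a range of −2.54 to 3.21. Among the 518 sites with an adjusted p there, 42 were called higher in the wing, against 28.7% of all sites tested, and 21 higher in the gland, against 26.4% of all sites tested. The highest called value of the authors' deposited table, 3.21 (adjusted p = 0.000285), was at a site inside Np, which encodes a serine protease of disc development. The lowest, −2.54 (adjusted p = 4.12e-05), was at a site inside the myosin gene Myo61F in the same authors' deposited table. The 3 comparisons share libraries: their log2 fold changes nearly add up, to within 0.28.

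For comparison, sites shared by leg and wing had medians of 1.32 for leg over gland and 0.02 for wing over leg in the authors' deposited tables. The leg alone thus had a median near that of leg and wing in the comparison with the gland. Values of leg over gland were above 0 at 471 of its 519 sites and at 507 of the 537 sites of leg and wing. Both classes have a leg peak and no gland peak by definition, which favours such values. The leg alone sat lower in the comparison with the wing, a direction that the rule also favours. Over all sites within the position limits, the median was 0.39 for leg over gland, −0.19 for wing over leg and 0.19 for wing over gland in the authors' deposited tables. After these medians were subtracted, the medians of the leg alone were 0.92, −0.68 and 0.21. With this centring, 94 of 518 sites (18.1%) were called higher in the leg than in the gland, near the 17.9% of all sites tested. Those higher in the gland were 5 (0.965%), against 27.2% of all sites tested. In wing over leg the centred calls were 14 higher in the leg (2.70%), against 0.491% of all sites tested, and 0 higher in the wing, against 1.39% of all sites tested. In wing over gland they were 28 higher in the wing (5.41%), against 23% of all sites tested. Those higher in the gland were 31 (5.98%), against 28.5% of all sites tested, which turns the balance of that comparison round.

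At a stricter adjusted p of 0.01 in the authors' deposited tables, 88 of 518 sites (17.0%) stood higher in the leg than in the gland. The share over all sites tested was 18.4%. Just 1 site (0.193%) stood higher in the gland, against 17% of all sites tested. In the authors' deposited table of wing over leg, 7 of 471 sites (1.49%) stood higher in the leg, against 0.271% of all sites tested. In the wing 0 stood higher, against 0.331% of all sites tested. Between wing and gland, the authors' deposited table had 13 of 518 sites (2.51%) higher in the wing, against 18.2% of all sites tested. It had 8 (1.54%) higher in the gland, against 22.1% of all sites tested.

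**Figure D3:**
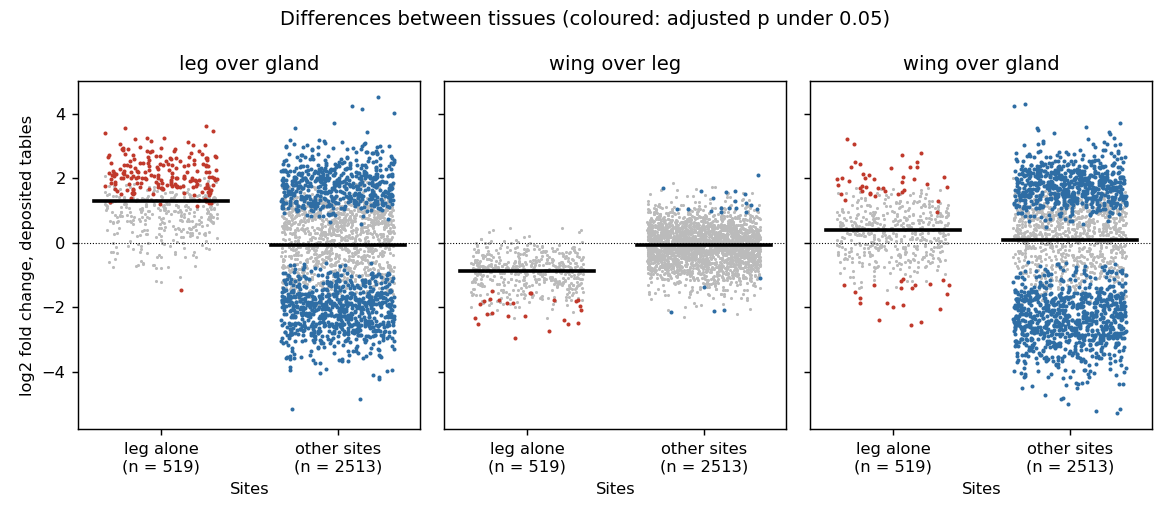
The log2 fold changes of the authors' deposited tables for leg over gland, wing over leg and wing over gland, at the 519 sites of the leg alone and at the other sites within the position limits; each point is a site, bars are medians, and coloured points had an adjusted p under 0.05. The leg alone has medians of 1.31, −0.87 and 0.40.

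The pellet lists did not enter the rule and come from the other CUT&RUN fraction of the same tissues. Both fractions carry the same antibody label and replicate numbers and may come from the same preparations. Pellet peaks are therefore not an independent check of the supernatant peaks. A pellet peak of the leg lay at 51 of the 519 sites, 9.83% (exact Clopper-Pearson 95% interval 7.40 to 12.7). A pellet peak of the wing lay at 62 sites, 11.9% (9.28 to 15.1), and 17 sites had both. A gland pellet peak lay at 9 sites, 1.73% (0.796 to 3.27), and 415 sites, 80.0%, had none of these. These ranges cover counting error only, with sites taken as independent. The leg and wing pellet shares come from the same 519 sites, so the ranges do not measure the difference between them. The pellet lists differ in length, with 1010 leg, 1545 wing and 936 gland peaks, and the part of list length in these shares was not tested.

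Sites shared by leg and wing had a leg pellet peak at 41.9% (37.7 to 46.2) and a wing pellet peak at 81.2% (77.6 to 84.4). At sites of the wing alone, which are the mirror class, 4.51% had a leg pellet peak and 36.9% a wing pellet peak. Pellet peaks went with strong supernatant peaks, so the shares were also set out by the fold enrichment of the leg peak, in ranges chosen after the data were seen. At leg fold enrichments under 5, a leg pellet peak lay at 3.66% of 246 sites of the leg alone and at 17.6% of 74 sites of leg and wing. From 5 to under 8 the shares were 7.28% of 206 and 14.1% of 185 sites, and at 8 or more 40.3% of 67 and 66.9% of 278 sites. Wing pellet peaks in the same ranges lay at 8.13%, 14.6% and 17.9% of the sites of the leg alone, against 64.9%, 69.7% and 93.2% of the sites of leg and wing. The classes were set by the presence or absence of a wing supernatant peak, so these wing pellet shares are a description.

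**Figure D4:**
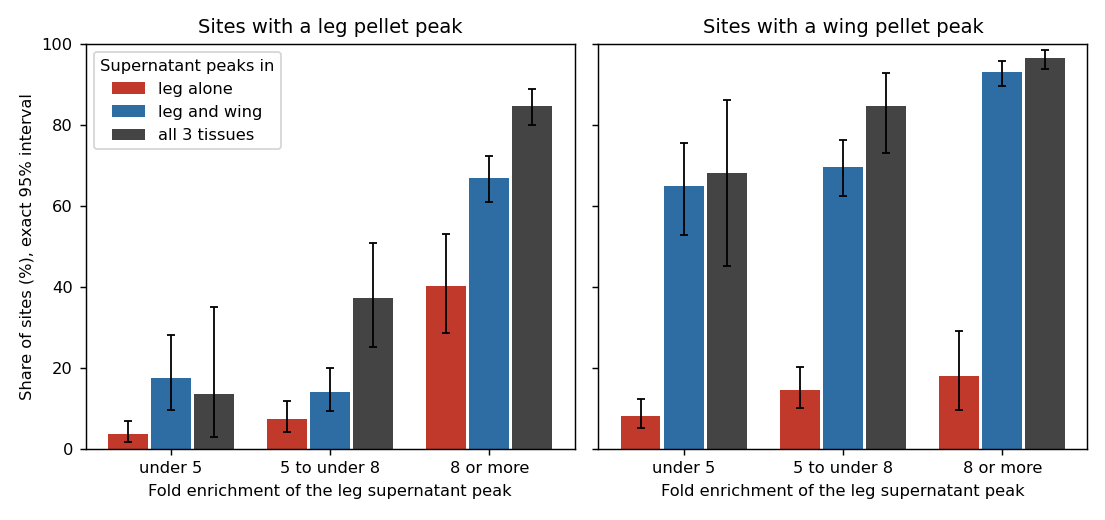
Share of sites with a leg pellet peak and with a wing pellet peak, by fold enrichment of the leg supernatant peak, for sites of the leg alone, of leg and wing, and of all 3 tissues; error bars are exact 95% intervals. At 8 or more, 40.3% of the leg-alone sites have a leg pellet peak and 17.9% a wing pellet peak.

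The strongest leg pellet peak of these sites, 8.55, lay inside eater, a phagocytosis receptor gene of haemocytes, and this site also had a wing pellet peak of 4.49. The next were in CG6398 at 6.60, in Cdk4, a cell cycle kinase gene, at 5.99, at the X site without a gene at 5.49 and in pHCl-2 at 5.18. Cdk4 had the strongest wing pellet peak of the class, 7.21, and Atg9, an autophagy gene 1154 bp away from its site, followed at 5.41. The 51 sites with a leg pellet peak had a median leg supernatant fold enrichment of 8.08, against 4.96 at the 468 sites without. Their median log2 fold changes were 1.95 for leg over gland and −1.34 for wing over leg in the authors' deposited tables, against 1.29 and −0.84 at the sites without. Of these 51 sites, 11 were called over the wing in the authors' deposited tables, against 0.902% of all sites tested. Over the gland 37 were called, against 29.6% of all sites tested, and both are contrasts that the rule used. At the 62 sites with a wing pellet peak the median of wing over leg was −0.36 in the authors' deposited table, with 3 called, against −0.91 with 22 called at the 457 without, beside the same 0.902% of all sites.

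All 9 sites with a gland pellet peak had values of leg over gland below 0 in the authors' deposited table, with a median of −0.75 and a range of −1.45 to −0.18. They lay in or near Myo61F, Sox14, Amun, the tubulin gene alphaTub84B, the ubiquitin-conjugating enzyme gene eff, CG31729, tara, the corepressor gene Smr and CG13321. Their gland pellet fold enrichments ran from 4.31 at CG13321 to 8.18 at Myo61F. The sources used here do not give which fractions entered the authors' fits, so these values may share libraries.

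Sites of the leg alone lay inside a coding gene span in 342 cases, 65.9% (exact 95% interval 61.6 to 70.0). Another 59 lay within 2000 bp of a span, 42 between 2000 and 5000 bp, and 76, 14.6% (11.7 to 18.0), farther than 5000 bp. The share inside a span was 67.2% at leg and wing, 73.4% at all 3 tissues and 82.0% at the 677 sites of the gland alone. By chromosome the sites numbered 120 on 3R, 116 on 3L, 97 on 2L, 97 on X and 89 on 2R. These were 35.6%, 31.4%, 34.2%, 42.2% and 38.4% of the sites with a leg peak on those arms, so X had the highest share and 3L the lowest. A wing or gland supernatant peak lay within 500 bp of 68 sites, 13.1%. The median distance was 16067 bp to the nearest wing peak and 35281 bp to the nearest gland peak.

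The sites inside gene spans touched 282 coding genes: 231 with 1 site of the leg alone, 34 with 2 and 17 with 3 or more. In 4 of these 17 genes, Ubx, N, trh and OdsH, every site of the authors' deposited tables was of the leg alone. Long spans have more room for sites, and span length was not adjusted for. Counts of called sites in the genes below are a description of contrasts that the rule used. Over all sites tested, 29.6% were called higher in leg than gland and 0.902% higher in leg than wing in the authors' deposited tables.

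Ubx held 6 sites in a span of 77804 bp on 3R. Their leg fold enrichments ran from 4.71 to 11.3, and their values of wing over leg ran from −2.74 to −0.63 in the authors' deposited table. All 6 values of leg over gland were above 0, the highest 3.12, in the authors' deposited table. The authors' deposited tables called 2 of the sites over the wing and 4 over the gland, and 3 of the 6 had no adjusted p for wing over leg. The strongest, from 16663517 to 16663898, had a leg pellet peak of 4.58, and no Ubx site had a wing pellet peak. The site from 16729091 to 16729192, with a leg fold enrichment of 4.71, differed from the others in the authors' deposited tables: it had 3.12 (adjusted p = 0.00209) for leg over gland but −0.63 (adjusted p = 0.78) for wing over leg. In the authors' deposited table of wing over gland it stood at 2.50 (adjusted p = 0.00798).

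N held 4 sites in 37352 bp on X, with leg fold enrichments of 12.1, 5.54, 4.39 and 4.79 along the chromosome. The strongest, from 3139954 to 3140288, had pellet peaks in the leg (4.25) and the wing (3.60). It was called over the gland, and none of the 4 was called over the wing in the authors' deposited tables, where wing over leg ran from −1.34 to −0.77. The 3 sites of trh, which encodes a transcription factor of tracheal development, had leg fold enrichments of 4.79, 11.1 and 5.65. Of these, 2 were called over the gland and none over the wing in the authors' deposited tables. OdsH held 3 neighbouring sites, at 4.56, 8.15 and 16.1, and 2 were called over the wing in the authors' deposited table.

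Other genes mixed sites of the leg alone with sites of other classes. Of the 11 sites inside osp 5 were of the leg alone, 3 of the wing alone, 1 of leg and wing, 1 of all 3 tissues and 1 with pellet peaks alone. The first osp site, with a leg fold enrichment of 16.1, was called over the wing (adjusted p = 0.000481) and over the gland (adjusted p = 8.86e-06) in the authors' deposited tables. The last, on 2L from 14674998 to 14675118, had −0.27 for wing over leg and an adjusted p of 0.991 for leg over gland in the authors' deposited tables. The transcription factor gene mamo held 5 such sites among 8, and 4 of the 5 were called over the gland in the authors' deposited table. In hth 4 of 9 sites inside the span were of the leg alone, with leg fold enrichments of 3.53 to 4.63 and none called over wing or gland in the authors' deposited tables. At brat 4 of 20 sites were of the leg alone, and at Eip75B 3 of 56, of which 22 were shared by all 3 tissues.

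**Figure D5:**
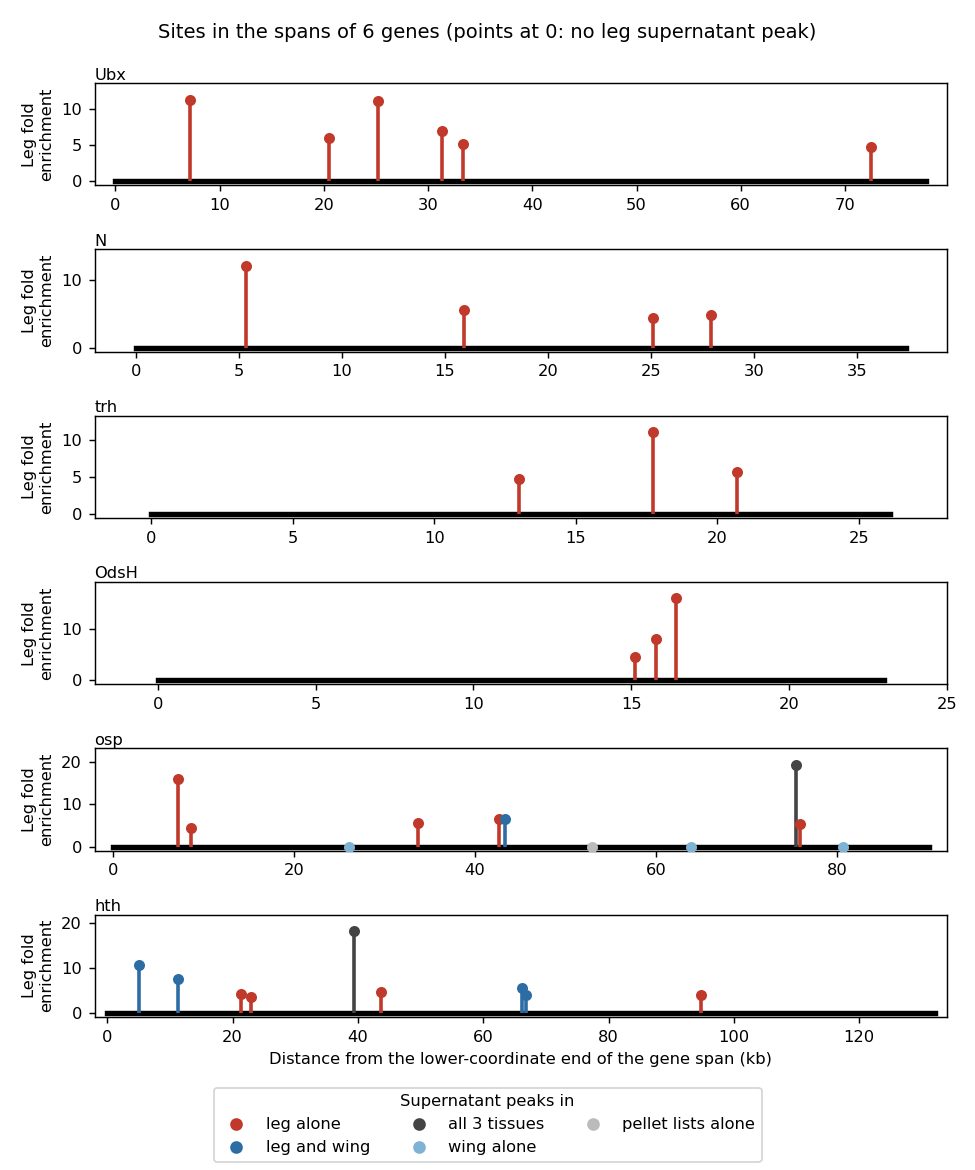
Sites along the spans of Ubx, N, trh, OdsH, osp and hth, with the leg supernatant fold enrichment on the vertical axis and the distance from the lower-coordinate end of the span in kb on the horizontal axis; points at 0 have no leg supernatant peak. Every site of Ubx, N, trh and OdsH is of the leg alone, while osp and hth mix classes.

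The 20 gene lists, written with earlier results of these data known, held 288 distinct genes found in the gene table. A site of the leg alone lay in or within 2000 bp of 59 of them. Counts of called sites per list are a description, to be read beside the 36.5% of the sites of the leg alone and 29.6% of all sites called higher in leg than gland in the authors' deposited table. In the ecdysone response list 12 of 30 genes had such a site, and 15 of the 201 sites of any class over the whole list were of the leg alone. The median leg over gland value of the 15 sites was 0.67 in the authors' deposited table, against 1.31 over all sites of the leg alone. Of the 15 sites 4 were called over the gland and 2, inside Eip75B and Eip78C, over the wing in the authors' deposited tables. A site inside the early gene br had a leg fold enrichment of 4.38, and one inside Eip74EF had 8.68, and neither was called in any of the authors' deposited tables. A site inside Hr4 had 2.26 (adjusted p = 0.0117) and one inside Hr3 had 2.11 (adjusted p = 0.0341) for leg over gland in the authors' deposited table, both nuclear receptor genes of the cascade. The sites inside ftz-f1, Kr-h1, crol and ImpL2 and near ImpL3 were not called for leg over gland in the authors' deposited table, while that near ImpE1 was (1.63, adjusted p = 0.0184).

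Over the leg patterning list 13 of 28 sites were of the leg alone, at 6 of 23 genes: hth, Sp1, Lim1, C15, bab1 and disco-r. Of the 13 sites 6 were called over the gland and 1, near hth, over the wing in the authors' deposited tables, with medians of 1.39 for leg over gland and −1.51 for wing over leg. Sp1 encodes a zinc finger factor of leg growth, and a site near it, on X from 9729407 to 9729484, had −2.32 for wing over leg with no adjusted p in the authors' deposited table, at a mean count of 2.93. Sites inside Lim1, a homeobox gene of the distal leg, had 2.00 (adjusted p = 0.0411) and 1.90 (adjusted p = 0.0124) for leg over gland in the authors' deposited table. Near C15, another homeobox gene of the leg tip, the values were −0.11 for leg over gland and −0.07 for wing over leg in the authors' deposited tables, close to 0 in both. Dll and dac, which specify distal and middle leg, had no site of the leg alone. Of 8 Hox genes 2 had such sites, Ubx and Antp, and 7 of the 8 sites at them were of the leg alone. The site inside Antp had 2.02 (adjusted p = 0.021) for leg over gland in the authors' deposited table.

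Among 20 wing genes 2 had such a site, pdm2 inside its span at 6.51 and knrl at 4.49, and neither was called in the authors' deposited tables. Notch and EGFR signalling genes had 12 sites at 7 genes, N, neur, E(spl)mbeta-HLH, Egfr, spi, aos and aop. The authors' deposited tables called 7 of the 12 higher in leg than gland, against 29.6% of all sites tested. They called 5 higher in wing than gland, against 28.7% of all sites tested, and 0 between wing and leg. The site inside neur, a ubiquitin ligase gene of Notch ligand traffic, had 3.40 (adjusted p = 0.000604) for leg over gland in the authors' deposited table. A site near aos, which encodes a secreted EGFR inhibitor, had 2.63 (adjusted p = 0.00459), and the stronger site inside spi, the gene of an EGFR ligand, had 2.39 (adjusted p = 0.00308), both in the authors' deposited table. Wnt signalling genes with sites were fz, fz2, fz3 and nkd, and 3 of their 6 sites were called over the gland in the authors' deposited table. Dpp and Hedgehog genes with sites were tkv, Dad, bi and pent, with 1 of 5 sites called over the gland in the authors' deposited table.

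In the Hippo and planar polarity list ft, ds, wts and pk had 6 sites, 2 of them called over the gland in the authors' deposited table. The eversion and matrix list had 4 sites, inside Np, dpy and kay, and the cell death and autophagy list 5, at hid, Diap1, Atg1 and Atg9. In each of these lists 1 site was called over the gland in the authors' deposited table, inside Np and inside Atg1. Cell cycle genes had sites inside stg, Cdk4, E2f1 and Myc, of which 3 were called over the gland in the authors' deposited table. None of these lists had a site called between wing and leg in the authors' deposited table.

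Genes of other cells that a leg preparation could hold also carried sites, to be read beside the 59 of 288 over all lists. Of 11 genes of adepithelial cells and muscle 2 had such sites, how and kirre, with 2 of 4 sites called over the gland in the authors' deposited table. Trachea genes with such sites were 2 of 9, trh and pio. Of 9 neuronal genes 1 did, brp, and of 8 haemocyte genes 1, eater. No gene of the fat body, salivary gland or sensory organ lists had a site of the leg alone within 2000 bp. The ecdysone synthesis list had a site near phtm, with 2.54 (adjusted p = 0.00868) for leg over gland in the authors' deposited table. The juvenile hormone list shared the Kr-h1 site. How far other cell types in the dissected legs contributed was not tested.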

How the data were processed

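EcR CUT&RUN peaks came as 6 lists and the differences between tissues as 3 tables. Per the submitters' processing notes the tools included MACS2 2.1.2, DESeq2, R 3.5.2, Bowtie2 2.3.4.1, bedtools 2.26, Picard 2.2.4 and SAMtools 1.9, with dm6 as the build; the sources used here do not give their settings. Deposited list names say that reads were trimmed, duplicates removed, fragments of 20 to 120 bp kept and replicates merged, and peak names point to merged wing IgG as the control for every tissue. If so, leg and gland peaks were both called against another tissue's background, and this includes the leg peaks that chose the sites.

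Each deposited peak has a fold enrichment (a ratio), a −log10 q, a score made from the q, and, as an other value, the summit's offset in bp, all by the authors. The deposited tables hold the authors' mean normalised read count (a signal averaged over fitted libraries), a log2 fold change with its standard error, a Wald statistic (a score) and a p-value with its adjusted p-value. The sources used here do not say which libraries entered.

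No counts per library are in these tables, so no model was fitted here and calls rest on the deposited adjusted p, with 0.05 as the threshold. The authors' overlap flags equalled the overlap computed here (at least 1 bp) at all 3463 sites for all 6 lists. Shares have exact Clopper-Pearson 95% intervals. Centring subtracted the median over sites within the position limits, with normal p-values and Benjamini-Hochberg adjustment, so centred calls are approximate; this step was tested on simulated data. Gene spans came from 13962 coding genes of a RefSeq table on the same assembly, and 291 of 296 listed symbols were found, 5 of them under an older name. The sites, gene lists and rule for named genes were chosen with earlier results of these data known. The rule named the 15 strongest leg peaks, the 10 largest called differences over wing and over gland whose mean count was not below the median of the table, sites called the other way, sites at listed genes, genes with 3 or more sites, the 10 strongest leg pellet peaks and sites at the limits of the rule. Python 3.11.15 was used with pandas 2.3.3, NumPy 2.4.6 and SciPy 1.17.1.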

Additional observations from a re-analysis of the deposited data

How the results depend on the processing

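The number of sites of the leg alone, 519, fell to 83 with leg peaks of a −log10 q of at least 10 and to 302 with supernatant lists of equal length, and stayed between 449 and 554 under the other 4 definitions. With leg peaks of a −log10 q of at least 10, the share with a pellet peak was 37.3% for the leg, 19.3% for the wing and 0% for the gland. With pellet peaks counted within 500 bp it was 17.3%, 21.2% and 3.47%, and with pellet peaks of a −log10 q of at least 10 it was 2.70%, 1.16% and 0.193%. Counts of calls from the authors' deposited tables also moved. Some settings kept fewer sites: 72 with mean counts not below the table's median, 83 with the strong leg peaks and 449 without pellet sites. A lower count under these settings need not be a lower share. Leg over gland calls higher in the leg were 189 of 518 sites in the main setting, 88 at an adjusted p of 0.01 and 94 after centring. They were 35 of the 72 sites with the higher mean counts and 51 of the 83 with the strong leg peaks. Those higher in the gland were 5 after centring, 0 with the strong leg peaks and 0 without sites that had a wing or gland pellet peak. Calls higher in the leg than in the wing were 7 at 0.01, 14 after centring and 12 of the 72 sites at the higher mean count. Of the 25 sites, 7 were still called at 0.01 and 14 after centring, and none changed sign. Wing over gland calls higher in the wing were 13 at 0.01, 11 at the higher mean count, 9 with the strong leg peaks and 25 without pellet sites, and those higher in the gland were 8, 11, 4 and 13 under the same settings. The share inside a gene span was 71.3% with all genes of the table, and 53 to 68 listed genes had a site at other distances. The causes of these changes were not tested. No paired analysis was possible because the lists come from merged replicates and the tables hold no value per library, and for the same reason no replicate could be left out. Motif searches were not run, as no genome was used here. Mean counts were under the table's median at most sites, and what this depth meant for the calls was not tested.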
